A study of Mus musculus with 4 samples.

Results

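The members described here are 10 of the 39179 genes counted in the files, 5 glucose transporters of the SLC2A (GLUT) family, *Slc2a1*, *Slc2a3*, *Slc2a6*, *Slc2a8* and *Slc2a10*, the 4 PFKFB genes, *Pfkfb1*, *Pfkfb2*, *Pfkfb3* and *Pfkfb4*, and *Tigar*. They were chosen by name and function, with earlier results of these data known. Their symbols were matched to the Ensembl identifiers of the count files through the GENCODE M21 annotation of GRCm38. Of the 10, 9 passed the filter on low counts and were tested. *Slc2a10* did not pass, with 0 counts in all 4 libraries.

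RNA was sequenced from B16F1 cells, a mouse melanoma cell line, in 2 libraries of parental control cells and 2 libraries of tumor repopulating cells (TRCs). TRCs are the B16F1 cells that grew into spheroids after single cells were seeded in soft fibrin gels of 90 Pa stiffness, and they were isolated on day 5. The comparison asks how the transcriptome of TRCs differs from that of the line they came from. No gene was altered and no drug is named in either group, and both groups come from 1 established line. According to the study's text, B16F1 cells are usually grown on rigid flat dishes, so the selection of cells and the change of culture cannot be told apart in this design. In each group the labels number the libraries 1 and 3. Nothing in the labels says that they came from separate cultures, so p-values here measure only the spread between these samples.

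Glucose enters most cells through facilitative transporters of the GLUT family, which let it follow its gradient, and hexokinase then traps it as glucose 6-phosphate. The committed step of glycolysis is catalysed by phosphofructokinase 1 (PFK-1), whose strongest allosteric activator is fructose 2,6-bisphosphate. The PFKFB enzymes are bifunctional, with a kinase domain that makes fructose 2,6-bisphosphate and a phosphatase domain that removes it, and the balance of these activities differs between the isoforms. TIGAR, a p53-induced phosphatase, resembles the phosphatase domain and lowers fructose 2,6-bisphosphate. In tumours *Slc2a1*, *Pfkfb3* and *Pfkfb4* are best known as targets of the hypoxia-inducible factor HIF-1.

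Each library held between 35948295 and 43511554 counts assigned to genes. A count of 3 corresponded to between 0.0675 and 0.0850 CPM (counts scaled to a common library size with TMM factors), a floor set by counting error alone. Reads with more than 1 alignment, which count for no gene, took 15.2% and 17.1% of the parental totals and 18.3% and 25.2% of the TRC totals, replicate 1 first. All 9 melanocyte markers were detected in every library, and their summed level ranged from 16261 to 19458 CPM in parental cells and from 24575 to 27363 CPM in TRCs. The summed level of 8 leukocyte markers ranged from 2.04 to 4.97 CPM in parental cells and from 1.71 to 2.09 CPM in TRCs, with *Ptprc*, *Cd3e*, *Itgam* and *Adgre1* at 0 in all libraries. That of 8 fibroblast and endothelial markers ranged from 2.21 to 4.77 CPM and from 2.12 to 4.21 CPM, with *Cdh5* and *Kdr* at 0 in all libraries.

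Among the members, *Slc2a1* and *Slc2a8* were upregulated about 4-fold in TRCs and *Pfkfb3* was downregulated 1.65-fold. The other 6 tested members did not pass the threshold of FDR under 0.05 in edgeR's exact test. Thus 2 of 9 members were higher and 1 of 9 was lower, where 8.81% of the 11483 genes tested were called higher and 7.05% lower. The median log2 fold change of the 9 members was 0.18, against 0.0034 over all genes tested, with 6 members above 0 and 3 below. These are RNA levels of cells in bulk, in which fewer cells of a kind and less RNA per cell cannot be told apart.

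**Figure D1:**
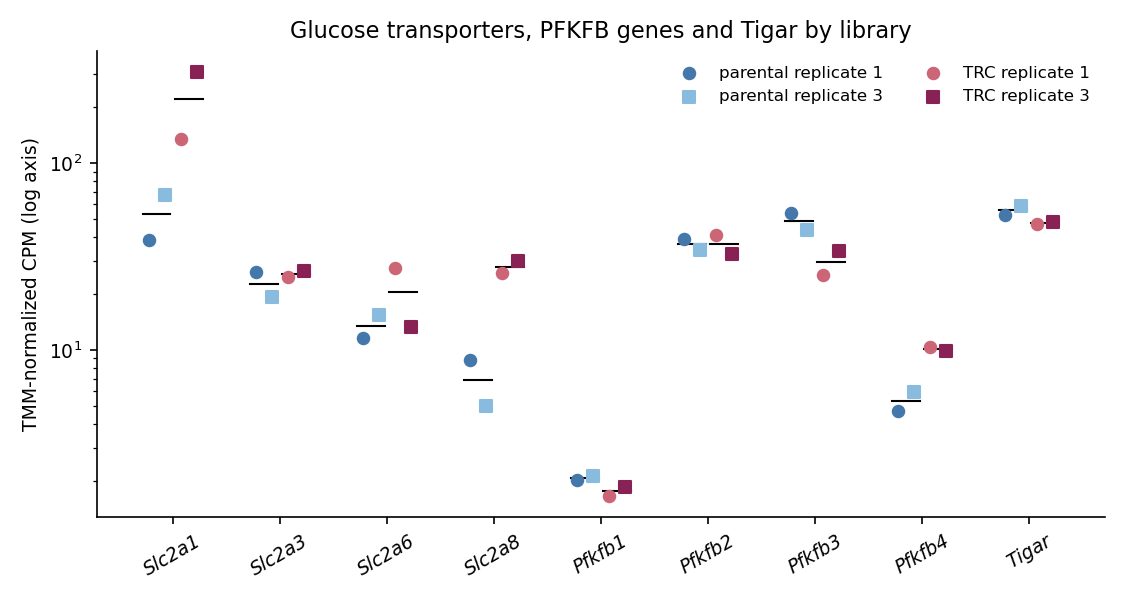
TMM-normalized CPM (log axis) of the 9 tested members in the 4 libraries, with parental cells in blue, TRCs in red, replicate 1 as circles, replicate 3 as squares and the mean of each group as a line. Both TRC libraries lie above both parental libraries for *Slc2a1*, *Slc2a8* and *Pfkfb4* and below them for *Pfkfb3*, *Pfkfb1* and *Tigar*. The groups overlap for *Slc2a3*, *Slc2a6* and *Pfkfb2*. With 2 libraries a group, even full separation has a two-sided p of 0.333 in an exact permutation test. The share of all genes tested that separate in this way is not given here, so the order of libraries is a description only.

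Promoter sequence is shown for the members that changed and for *Pfkfb4*, because HIF-1 binds a short core, ACGTG or GCGTG. Each stretch is 30 bases of the RefSeq promoter window (GRCm38.p6, 250 bases before to 50 after a transcript start), written 5′ to 3′ on the strand of the gene, with the cores in capitals. Positions count from RefSeq starts, which can differ from the GENCODE M21 gene starts given below. By the GENCODE coordinates, all stretches except that of *Slc2a8* lie wholly or partly inside the gene. CACGC is GCGTG and CACGT is ACGTG read on the opposite strand. Counted on both strands, the window held 2 cores for *Slc2a1*, 1 for *Slc2a8* and 1 for *Pfkfb4*. The *Pfkfb3* windows held 1 and 4, and of these 4 only those within CACGTG are printed. Among members tested and not called, *Slc2a6* held 4, *Pfkfb2* up to 4 in a window, *Pfkfb1* up to 1 and *Tigar* 0.

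*Slc2a1*, chr4:119108684-119108713, plus strand, positions -61 to -32 from the start: CACGCctctcagagtcccgccccggACGTG

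*Slc2a8*, chr2:32982239-32982268, minus strand, positions -185 to -156 from the start: gacctgatgggcCACGCcttcagactcaca

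*Pfkfb4*, chr9:108991773-108991802, plus strand, positions -129 to -100 from the start: ttgacggatgggGCGTGcttagtccaaaag

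*Pfkfb3*, first window, chr2:11553972-11554001, minus strand, positions -72 to -43 from the start: ctccgcgccgtgACGTGccaagctgtgacc

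*Pfkfb3*, second window, chr2:11502126-11502155, minus strand, positions -65 to -36 from the start: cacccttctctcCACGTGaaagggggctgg

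The *Slc2a1* stretch holds both forms of the core, and that of *Slc2a8* holds the GCGTG form. In the second *Pfkfb3* window ACGTG is read on both strands because it lies inside CACGTG, which is also the E-box read by MYC and its relatives. Over the 15 windows of the 9 members in the table, 8 members held ACGTG or GCGTG on either strand, and *Tigar* was the member without it. *Slc2a3* is not in the table. Among 27025 genes with a window, 46.73% held ACGTG or GCGTG, 21.78% held ACGTG and 8.093% held CACGTG. Of all 32851 windows, 43.77% held ACGTG or GCGTG. A gene with more windows has more places for a match, and some members have several, so the shares per gene are not a like comparison. The match of *Slc2a10* lay after the start, at position 21. With ACGTG alone, 4 of the 9 members held a match. These were the upregulated *Slc2a1*, the downregulated *Pfkfb3*, *Pfkfb2*, which did not pass the test and whose first window also holds CACGTG, and *Slc2a10*, which had 0 counts. These are letter matches in short windows and were not tested against the expression values.

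*Slc2a1* (ENSMUSG00000028645, chr4:119108711-119137983, plus strand) encodes GLUT1, the main transporter of basal glucose uptake in many proliferating cells. Its counts were 1732 and 2389 in the parental libraries (replicate 1, then 3) and 5577 and 12780 in the TRC libraries, which correspond to 39.0, 67.7, 134 and 307 CPM. Both TRC libraries were above both parental libraries, and TRC replicate 3 stood 2.29-fold above TRC replicate 1. The means were 53.3 ± 20.3 CPM in parental cells and 221 ± 122 CPM in TRCs (SD, n = 2 each). *Slc2a1* was 4.14-fold higher in TRCs (log2 fold change 2.05, SE 0.38, 95% interval 1.3 to 2.8, FDR = 4.28e-06 in edgeR's exact test). Without TRC replicate 3 the log2 fold change was 1.33 and the gene still passed (FDR = 0.00337, edgeR's exact test). In rank it was number 158 of the 11483 genes tested by log2 fold change.

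*Slc2a8* (ENSMUSG00000026791, chr2:32972990-32982083, minus strand) encodes GLUT8, a transporter held mostly on intracellular membranes. It was measured at 8.84 and 4.99 CPM in parental replicates 1 and 3 and at 25.9 and 29.9 CPM in TRC replicates 1 and 3. Here the TRC libraries lay close together, and the groups were well apart. The means were 6.91 ± 2.72 CPM and 27.9 ± 2.84 CPM (SD, n = 2 each), a 4.03-fold difference (log2 fold change 2.01, SE 0.33, 95% interval 1.36 to 2.67, FDR = 2.45e-06 in edgeR's exact test). The fold changes of *Slc2a1* and *Slc2a8* were close with all 4 libraries, but their difference was not tested, and without TRC replicate 3 the log2 values were 1.33 and 1.90 and without parental replicate 3 they were 2.50 and 1.66. Per kilobase of merged exons, *Slc2a8* reached 8.08 and 9.33 CPM in TRCs, where *Slc2a1* reached 38.3 and 87.6 CPM. The genes also differed in how their TRC libraries spread, with a ratio of replicate 3 to replicate 1 of 2.29 for *Slc2a1* and 1.15 for *Slc2a8*.

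*Slc2a3* (ENSMUSG00000003153, chr6:122727809-122801640, minus strand) encodes GLUT3, a high-affinity transporter best known from neurons. Its levels were 26.1 and 19.2 CPM in parental replicates 1 and 3 and 24.7 and 26.6 CPM in TRC replicates 1 and 3. The groups overlapped, and the difference did not pass the test (log2 fold change 0.18, SE 0.26, 95% interval -0.34 to 0.70, FDR = 0.743, edgeR's exact test). The upper end of this interval lies below the lower end of the interval of *Slc2a1*. *Slc2a6* (ENSMUSG00000036067, chr2:27021363-27027998, minus strand), which encodes the lysosomal transporter GLUT6, had 11.6 and 15.4 CPM in parental cells and 27.5 and 13.3 CPM in TRCs. Only TRC replicate 1 stood apart, at about 2 times the level of TRC replicate 3, and the groups overlapped (log2 fold change 0.60, SE 0.38, 95% interval -0.15 to 1.34, FDR = 0.312, edgeR's exact test). *Slc2a10* (ENSMUSG00000027661, chr2:165503787-165519917, plus strand) encodes GLUT10. Its 0 counts allow a level of up to 0.0675 to 0.0850 CPM in these libraries.

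Of 13 other sugar transporters listed, 4 passed the filter, 2 were higher in TRCs and 0 were lower. *Slc2a13*, which encodes the proton and myo-inositol symporter HMIT, had 2.38 and 0.85 CPM in parental cells and 5.94 and 4.06 CPM in TRCs, a 3.07-fold difference (log2 fold change 1.62, SE 0.59, FDR = 0.0244, edgeR's exact test). This call rests on a low gene, and without parental replicate 3 the log2 fold change was 1.07 and without parental replicate 1 it was 2.55. Without parental replicate 3, TRC replicate 1 or TRC replicate 3 the FDR was above 0.05, at 0.292, 0.277 and 0.0691 (edgeR's exact test). *Slc2a5*, which encodes the fructose transporter GLUT5, had 37.8 and 35.6 CPM in parental cells and 53 and 60.7 CPM in TRCs. It was 1.55-fold higher (log2 fold change 0.63, SE 0.22, FDR = 0.0408, edgeR's exact test), and leaving out any 1 library raised its FDR above 0.05, to between 0.0851 and 0.333. *Slc2a9*, a urate transporter gene, and *Slc50a1*, which encodes the sugar exporter SWEET1, had log2 fold changes of 0.30 and 0.55 and did not pass (FDR = 0.737 and 0.264, edgeR's exact test). Without parental replicate 1 *Slc50a1* passed (FDR = 0.0217, edgeR's exact test). *Slc2a4*, which encodes the insulin-responsive GLUT4, was under the filter with 19 and 24 counts in parental cells and 71 and 8 in TRCs.

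The transporter pool was compared per kilobase of merged exons over the 12 *Slc2a* genes listed. Summed over these genes, the level was 33.2 and 39.6 CPM per kb in parental replicates 1 and 3 and 76.0 and 124 CPM per kb in TRC replicates 1 and 3, with means of 36.4 ± 4.48 and 99.8 ± 33.7 (SD, n = 2 each). *Slc2a1* made up 33.4% and 48.8% of the sum in parental cells and 50.4% and 70.9% in TRCs. *Slc2a3*, which did not pass the test, made up 10.8% and 6.70% in parental cells and 4.48% and 2.97% in TRCs, so its share was lower in both TRC libraries while its own level overlapped. *Slc2a5* made up 33.4% and 26.4% in parental cells and 20.5% and 14.4% in TRCs, so it equalled *Slc2a1* in parental replicate 1 and came after it in the other libraries. *Slc2a8* made up 8.29% and 3.93% in parental cells and 10.6% and 7.55% in TRCs, which overlap. With 2 libraries a group the smallest two-sided p of an exact permutation test is 0.333, so shares and sums are given without a test.

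**Figure D2:**
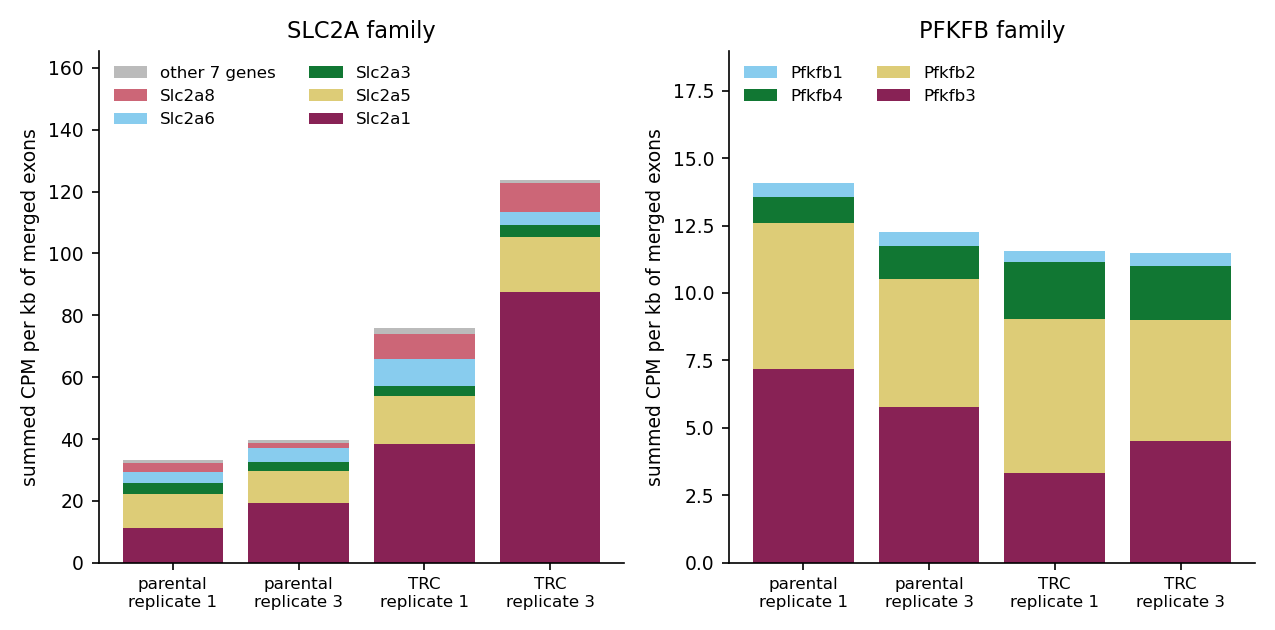
Summed CPM per kb of merged exons in each library, stacked by gene, for the 12 *Slc2a* genes listed (left) and the 4 PFKFB genes (right). The SLC2A sum is 33.2 and 39.6 in parental cells and 76.0 and 124 in TRCs, with *Slc2a1* as the tallest part in TRCs, while the PFKFB sum lies between 11.5 and 14.1.

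The PFKFB genes differed in sign, with a median log2 fold change of -0.12 over the 4 genes, 1 lower and 0 higher in TRCs. *Pfkfb3* (ENSMUSG00000026773, chr2:11471433-11554077, minus strand) encodes the isoform with by far the highest kinase over phosphatase activity. Its levels were 54.2 and 43.6 CPM in parental replicates 1 and 3 and 25.3 and 34.0 CPM in TRC replicates 1 and 3, so both TRC libraries were below both parental libraries. The means were 48.9 ± 7.47 CPM and 29.7 ± 6.19 CPM (SD, n = 2 each), and the log2 fold change was -0.72 (SE 0.26, 95% interval -1.23 to -0.21, FDR = 0.0375, edgeR's exact test). The call lies near the threshold. Without parental replicate 1, TRC replicate 1 or TRC replicate 3 the FDR was 0.21, 0.375 and 0.0566 (edgeR's exact test), and with edgeR's quasi-likelihood test it was 0.0742. The log2 fold change was below 0 in each of the 12 alternatives, between -0.96 and -0.54.

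*Pfkfb4* (ENSMUSG00000025648, chr9:108991778-109032228, plus strand), another hypoxia-inducible isoform, had a difference of the opposite sign. It stood at 4.72 and 5.98 CPM in parental replicates 1 and 3 and 10.3 and 9.83 CPM in TRC replicates 1 and 3, with means of 5.35 ± 0.888 and 10.1 ± 0.363 CPM (SD, n = 2 each). The groups did not overlap and the difference was 1.89-fold, but it did not pass edgeR's exact test (log2 fold change 0.92, SE 0.33, 95% interval 0.26 to 1.57, FDR = 0.0949). In DESeq2's Wald test, which gave the interval, it passed with FDR = 0.0384. The 95% intervals of *Pfkfb3* and *Pfkfb4* lie on opposite sides of 0.

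*Pfkfb2* (ENSMUSG00000026409, chr1:130689182-130729253, minus strand), the isoform known from heart, where insulin signalling phosphorylates it, had nearly the same mean in both groups. Its levels were 39.4 and 34.4 CPM in parental cells and 41.3 and 32.6 CPM in TRCs (log2 fold change 0.0013, SE 0.24, 95% interval -0.47 to 0.48, FDR = 1, edgeR's exact test). The groups overlapped, and replicate 1 was the higher library in each. *Pfkfb1* (ENSMUSG00000025271, chrX:150588229-150643878, plus strand), the isoform of liver and muscle, was the lowest tested member, at 2.0 and 2.13 CPM in parental cells and 1.66 and 1.85 CPM in TRCs. The groups did not overlap, and the difference did not pass (log2 fold change -0.23, SE 0.56, 95% interval -1.33 to 0.86, FDR = 0.806, edgeR's exact test). The exons of *Pfkfb2* share 154 bases with *Yod1* and those of *Pfkfb1* share 123 bases with *Apex2*, both on the opposite strand, as are *Gm12868*, which shares 105 bases with *Slc2a1*, and *Platr31*, which shares 122 with *Tigar*, and the strand setting of the counting is not given in the sources used here. On the same strand *Gm29427* shares 1262 exon bases with *Pfkfb2* in GENCODE M21, and no count of it was analysed here, so the *Pfkfb2* level and its ratios are uncertain in that respect.

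Per kilobase of merged exons the summed PFKFB level was 14.1 and 12.3 CPM per kb in parental replicates 1 and 3 and 11.6 and 11.5 CPM per kb in TRC replicates 1 and 3. The parts of this sum differed between the groups. *Pfkfb3* made up 51.0% and 47.0% in parental cells and 28.9% and 39.3% in TRCs, while *Pfkfb4* made up 6.89% and 10% and then 18.3% and 17.6%. The ratio of *Pfkfb3* to *Pfkfb4* per kilobase was 7.40 and 4.70 in parental cells and 1.58 and 2.23 in TRCs. The ratio of *Pfkfb3* to *Pfkfb2* was 1.32 and 1.22 in parental cells and 0.587 and 1.0 in TRCs, so *Pfkfb3* was the leading PFKFB transcript in both parental libraries and stood level with *Pfkfb2* in TRC replicate 3 and below it in TRC replicate 1.

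*Tigar* (ENSMUSG00000038028, chr6:127085116-127109557, minus strand) acts against the PFKFB kinases by removing fructose 2,6-bisphosphate. Its levels were 52.9 and 59.1 CPM in parental replicates 1 and 3 and 46.9 and 48.3 CPM in TRC replicates 1 and 3. Both TRC libraries were lower, but by little, and the difference did not pass (log2 fold change -0.23, SE 0.21, 95% interval -0.65 to 0.18, FDR = 0.535, edgeR's exact test). Per kilobase the ratio of *Pfkfb3* to *Tigar* was 0.495 and 0.357 in parental cells and 0.261 and 0.341 in TRCs. With the longest transcript as length it was 0.779 and 0.561 in parental cells and 0.410 and 0.536 in TRCs.

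The genes that act at the same steps mostly rose. Of 15 genes listed for the glucose 6-phosphate and fructose 1,6-bisphosphate steps, 7 were tested, 6 were higher in TRCs and 0 were lower, with a median log2 fold change of 1.8. Hexokinase genes *Hk2* and *Hk1*, which act directly after the transporters, were 3.49-fold and 1.81-fold higher (log2 fold change 1.8 and 0.86, SE 0.35 and 0.31, FDR = 9.55e-06 and 0.0299, edgeR's exact test). Without TRC replicate 3 *Hk1* had a log2 fold change of 0.30 and did not pass (FDR = 0.622, edgeR's exact test), and that of *Hk2* was 1.05. The PFK-1 subunit genes *Pfkl*, *Pfkp* and *Pfkm*, whose enzyme the PFKFB product activates, were 7.08-fold, 5.09-fold and 1.83-fold higher (FDR = 1.19e-10, 2.40e-08 and 0.00267, edgeR's exact test). *Pfkl* stood at 55.5 and 57.8 CPM in parental cells and at 215 and 587 CPM in TRCs. Without TRC replicate 3 the log2 fold changes of *Pfkl* and *Pfkp* were 1.92 and 1.56, and *Pfkm* did not pass (FDR = 0.146, edgeR's exact test). *Fbp1*, which encodes the phosphatase that opposes PFK-1, had 5 and 12 counts in parental cells and 31 and 12 in TRCs, and *Fbp2* had at most 5 counts in any library, so neither was tested.

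The ratio of summed PFK-1 to summed PFKFB transcript per kilobase was 2.28 and 2.43 in the parental libraries (replicate 1, then 3) and 6.81 and 15.1 in the TRC libraries. Both TRC libraries were thus above both parental libraries, but the TRC libraries spread more widely. The SD of the log2 ratio was 0.066 in parental cells and 0.81 in TRCs. Of 20 genes listed for lower glycolysis and lactate, 16 were tested, 13 were higher in TRCs and 0 were lower, with a median log2 fold change of 1.31. Among them the lactate exporter gene *Slc16a3* (MCT4) and the aldolase gene *Aldoc* had log2 fold changes of 5.22 and 4.21 (FDR = 1.10e-17 and 2.32e-36, edgeR's exact test).

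**Figure D3:**
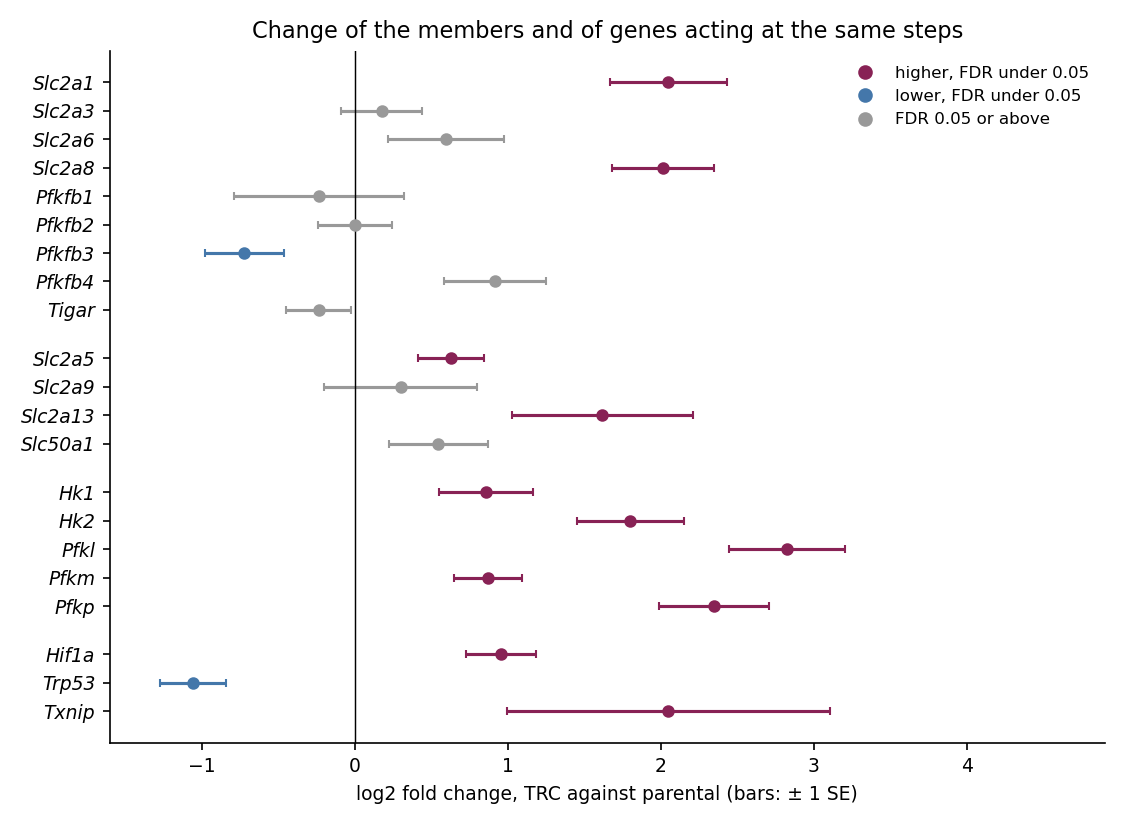
Log2 fold change of TRCs against parental cells with bars of 1 SE for the 9 tested members, for other sugar transporters, for hexokinase and PFK-1 genes and for *Hif1a*, *Trp53* and *Txnip*, coloured by the call of edgeR's exact test. All 5 hexokinase and PFK-1 genes lie above 0, between 0.86 and 2.82, while the PFKFB genes and *Tigar* spread from -0.72 to 0.92.

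Genes that control transporter traffic mostly did not pass the test. Of 17 symbols listed, 16 were in the files, since *Stxbp3a* is another symbol of the listed *Stxbp3*. Of these, 15 were tested, 2 were higher in TRCs and 0 were lower, with a median log2 fold change of 0.095. Both are alpha-arrestin genes. *Txnip*, whose protein draws GLUT1 into the cell and is itself induced by glucose, had 75.1 and 15.9 CPM in parental cells and 125 and 252 CPM in TRCs (log2 fold change 2.05, SE 1.05, FDR = 0.00288, edgeR's exact test). Its parental libraries differed widely, so that the log2 fold change was 3.57 without parental replicate 1 and 1.33 without parental replicate 3. Without TRC replicate 3 it was 1.45 and did not pass (FDR = 0.127, edgeR's exact test), nor did *Txnip* pass in DESeq2's Wald test (FDR = 0.17). *Arrdc3*, a relative of *Txnip*, had a log2 fold change of 1.89 (SE 0.26, FDR = 1.40e-10, edgeR's exact test).

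Of 15 genes listed for kinases and ligases that act on PFKFB proteins, 14 were tested, 2 were higher and 0 were lower, with a median log2 fold change of 0.11. *Prkab2*, a regulatory subunit of AMP-activated protein kinase, had a log2 fold change of 1.53 (FDR = 0.000978, edgeR's exact test). Of the genes of this list, 12 did not pass.

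Among 11 transcription factors of glucose metabolism, 10 were tested, 1 was higher and 1 was lower. *Hif1a*, the regulated subunit of HIF-1, stood at 242 and 279 CPM in parental cells and 579 and 430 CPM in TRCs (log2 fold change 0.96, SE 0.23, FDR = 0.00209, edgeR's exact test), and without TRC replicate 1 it did not pass (FDR = 0.126, edgeR's exact test). *Trp53*, which encodes p53, the inducer of *Tigar*, stood at 160 and 197 CPM in parental cells and 81.6 and 90.2 CPM in TRCs (log2 fold change -1.06, SE 0.21, FDR = 0.000241, edgeR's exact test). Of 18 p53 targets listed, 14 were tested, 3 were lower and 1 was higher, with a median log2 fold change of -0.23. *Aen*, *Mdm2* and *Ccng1* were lower, with log2 fold changes of -1.18, -0.71 and -0.69, and *Sesn1* was higher at 1.04 (FDR = 0.000155, 0.0132, 0.0406 and 0.00766, edgeR's exact test). *Tigar*, which did not pass, was close to the median of this list, and a link to *Trp53* was not tested.

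Of 18 symbols listed for the response to hypoxia, none of them a member, 17 were in the files, since *Ero1a* is another symbol of the listed *Ero1l*. All 17 were tested, 16 were higher in TRCs and 0 were lower. Their median log2 fold change was 2.18. *Slc2a1*, at 2.05, lay near this median, whereas *Pfkfb4*, at 0.92, and *Pfkfb3*, at -0.72, lay below it, and the lowest gene of the list was at 0.66. Over all genes tested, 8.81% were called higher. The list was written with earlier results of these data known, so its counts and median are a description and no independent yardstick for the members.

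The TRC libraries differed from each other in these genes. In TRC replicate 3, all 17 tested hypoxia genes were above TRC replicate 1, with a median log2 ratio of 1.01, and 20 of 23 tested genes of the glycolysis lists were, with a median of 0.85. Over all genes tested the median was 0.00068. Of the 9 members, 6 were above, with a median of 0.11. *Slc2a1* had the same order as these genes, at a 2.29-fold difference between TRC libraries, whereas *Slc2a8*, *Pfkfb4* and *Tigar* differed little and *Slc2a6* was lower in TRC replicate 3. TRC replicate 3 also had the largest share of reads with more than 1 alignment, and the part of that share in these differences was not tested.

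**Figure D4:**
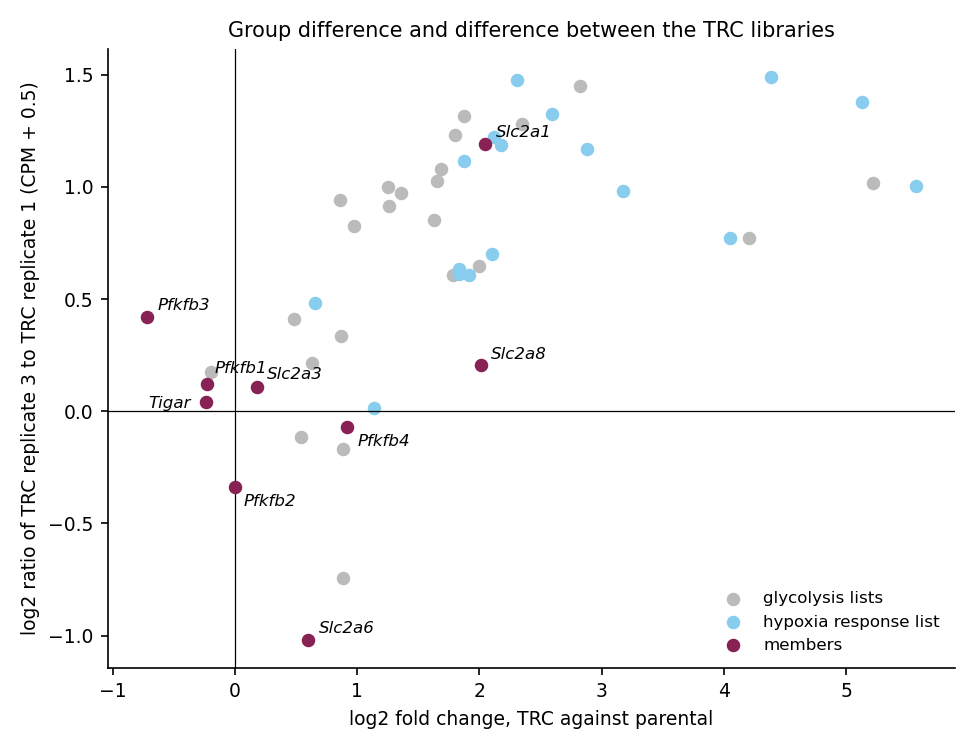
Log2 ratio of TRC replicate 3 to TRC replicate 1 (CPM plus 0.5, vertical axis) against the log2 fold change of TRCs against parental cells (horizontal axis) for the 9 tested members, the glycolysis lists and the hypoxia list, 1 point per gene. Both axes use the TRC libraries, so they are not independent. *Slc2a1* lies among the hypoxia genes, and *Slc2a8* lies at nearly the same log2 fold change of about 2 with a log2 ratio near 0.

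The genes whose pattern over the 4 libraries was most like that of a member were found by the root mean square difference of centred log2 values among all genes tested with a symbol. For *Slc2a1* these were *Bhlhe40*, *Maff* and *P4ha2*, at 0.0965, 0.136 and 0.184. For *Pfkfb3* they were *Gm10762*, *Ispd* and *Rars*, at 0.0322, 0.0465 and 0.0466, and for *Pfkfb4* they were *Dag1*, *Ano1* and *Itpkb*, at 0.0169, 0.0226 and 0.0434. *Slc2a3* was nearest to *Recql5*, *Ift57* and *Araf*, at 0.0213, 0.0246 and 0.0276, and *Tigar* to *Armc8*, *Arhgap5* and *Gpatch8*, at 0.00702, 0.0073 and 0.00798. *Slc2a1* had the least close neighbours of these 5 members. The values were centred but not scaled, so the distance tends to be larger for genes that vary more. It does not rank the members by how particular their patterns are. With 4 libraries such likeness is a description of these samples.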

How the data were processed

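The authors deposited counts for Ensembl genes without normalization, 1 set per library, made from stranded libraries with CASAVA 1.8.2, Trimmomatic 0.35, TopHat2 2.1.0, Bowtie2 2.2.6, SAMtools 1.3 and HTSeq on GRCm38, per the submitters' processing notes and the study's methods. The strand and overlap settings of the counting are not given in the sources used here. Rows that name no gene (20.2% to 29.0% of each library) were removed. Genes under 1 CPM in at least 3 of the 4 samples were removed, TMM factors and tagwise dispersions were computed and edgeR 4.0.16 (R 4.3.3) gave the exact test with Benjamini-Hochberg FDR under 0.05 over all 11483 genes. Standard errors and 95% intervals came from DESeq2 1.42.0. CPM is the count divided by the TMM-scaled size of the tested genes. Levels per kilobase used merged exon length in GENCODE M21.

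Members and lists were chosen with earlier results of these data known. Named genes are the members, every tested sugar transporter, *Hk1*, *Hk2*, *Pfkl*, *Pfkm*, *Pfkp*, *Fbp1*, *Fbp2*, *Hif1a*, *Trp53* and *Txnip*, up to 4 genes of smallest FDR per list with any gene called against its majority, and the 3 nearest genes of 5 members. *Slc2a4* and the markers at 0 were named after their values were seen. Some genes that the rule selects are left unnamed. The test was tested on simulated data. Alternatives were 3 filters, 2 normalizations, 3 tests and each library left out. Plots used matplotlib 3.10.9.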

Additional observations from a re-analysis of the deposited data

How the results depend on the processing

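*Slc2a1* and *Slc2a8* kept their direction and an FDR under 0.05 in all 12 alternatives, with log2 fold changes of 1.33 to 2.51 and 1.66 to 2.49. *Pfkfb3* kept its direction in all 12 and its call in 6, and the count of members lower in TRCs was 0 with no filter and with edgeR's quasi-likelihood test, and 0 to 1 with 1 library left out. *Pfkfb4* passed only in DESeq2's Wald test. The log2 fold change of *Pfkfb2* was -0.027 with no filter and -0.022 with library size only. With 1 library left out, it ranged from -0.20 to 0.15, that of *Slc2a3* from -0.026 to 0.42, that of *Slc2a6* from -0.031 to 1.02 and that of *Slc2a9* from -0.17 to 0.63. The median over all genes moved by less than 0.1 in every alternative.

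Genes called higher and lower numbered 567 and 487 with the quasi-likelihood test. With 1 library left out they ranged from 500 (without parental replicate 3) to 1078 and from 269 (without TRC replicate 1) to 854. Of the other sugar transporters, 1 was higher with no filter, 1 with library size only, 0 with the quasi-likelihood test and 0 to 2 with 1 library left out. The quasi-likelihood test called 8 genes of lower glycolysis and lactate higher. For transporter traffic 1 gene was higher with the quasi-likelihood test, 1 with DESeq2 and 1 to 3 with 1 library left out. For kinases and ligases acting on PFKFB proteins, DESeq2 called 1 gene lower, and 1 to 2 were higher with 1 library left out. With 1 library left out, 0 to 1 transcription factors were higher, 0 to 1 p53 targets were higher and 1 to 3 were lower. With the longest transcript as length, *Pfkfb2* made up 39.6% of its family in parental cells and *Pfkfb4* made up 16.1% in TRCs. With ACGTG alone, 4 members held a promoter match. Where a value moved, the cause was not tested.

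The replicate numbers are shared by both groups, but the deviations of same-numbered libraries correlated at only 0.027 over genes, so nothing shows that they pair the samples. With the replicate block in the quasi-likelihood test, 477 genes were higher and 308 lower, 0 members were lower, 0 other sugar transporters, 1 traffic gene, 1 kinase gene and 0 p53 targets were higher, 1 p53 target was lower, and the log2 fold change of *Pfkfb2* was -0.0051. With 2 libraries a group, and 1 where a library was left out, a lone library is assumed to vary like the others.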
